A study of Rattus norvegicus with 32 samples.

Results

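Th, Ddc, Slc6a3, Slc18a2, Maoa and Maob are the 6 genes for the synthesis, uptake and breakdown of monoamines that are described here, out of 28914 genes in the count tables of the rat brain (24549 of them with a read in at least 1 sample). Each was looked up by its symbol, and all 6 were found. Tyrosine hydroxylase (Th) makes L-DOPA from tyrosine and is the rate-limiting enzyme of dopamine and noradrenaline synthesis, and aromatic L-amino acid decarboxylase (Ddc) turns L-DOPA into dopamine and 5-hydroxytryptophan into serotonin. The dopamine transporter (Slc6a3) returns released dopamine to the nerve ending, the vesicular monoamine transporter (Slc18a2) loads monoamines into vesicles, and the monoamine oxidases of the outer mitochondrial membrane (Maoa and Maob) break them down. Methamphetamine (METH) acts on both transporters, and the dopamine that it releases reaches the forebrain in axons whose cell bodies, with most of the mRNA for Th, Slc6a3 and Slc18a2, lie in the midbrain.

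The tissue came from adult male Sprague-Dawley rats that received METH (10 mg/kg, 4 intraperitoneal injections, 2 h apart) or saline (0 mg/kg METH) at the same times, and it was taken 24 h after the last injection. RNA was sequenced, with the ribosomal part depleted, from the nucleus accumbens (NAc), the dentate gyrus (DG), the Ammon's horn (CA) of the hippocampus and the subventricular zone (SVZ), with 4 saline and 4 METH samples of each region (32 in all). The NAc and SVZ were punched from slices and the DG and CA were scooped out, so a sample is a bulk of tissue, in which fewer cells of a type cannot be told apart from less RNA per cell. The labels do not say which samples came from separate rats, so p-values measure the spread between these samples. Counts per sample totalled 11094002 to 21869773 reads on genes (median 14533166.5), and 1 read was worth 0.0442 to 0.0934 CPM (reads scaled to the size of the library by the upper quartile of its counts), which is the finest step of any level.

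By markers of pineal, hypothalamic, striatal and thalamic tissue, 6 of the 32 libraries stood apart, and choroid plexus markers set others apart. DG saline 4 held 3605 CPM of 5 genes of the pineal gland (Tph1, Aanat, Asmt, Crx and Rbp3) against 0.635 to 7.48 CPM in the 31 others. NAc METH 3 held 1614 CPM of 6 hypothalamic genes (among them Avp and Oxt, the neuropeptides vasopressin and oxytocin) against 1.08 to 95.04 CPM elsewhere, and 106 CPM of 6 striatal neuron markers against at least 1110 CPM in the other NAc samples. DG saline 3 held 1350 CPM of the striatal markers, above the 274 CPM that was the highest level in the other DG samples. SVZ saline 1, SVZ METH 2 and SVZ METH 4 held 1614, 1436 and 962 CPM of 4 thalamic neuron markers, above the 428 CPM that was the highest level in the other SVZ samples. The dentate granule markers (Prox1, Dsp, C1ql2 and Tdo2) reached 29.3 to 207 CPM in DG saline and 46.9 to 404 CPM in CA saline, so they did not set the region labelled DG apart from the CA. With METH they reached 71.7 to 418 CPM in the DG (median 310, against 63.2 in saline). In the CA they reached 69.3 to 200 CPM with METH (median 106, against 228 in saline). The part of this difference in the METH comparisons was not tested. The sum of 6 choroid plexus markers (among them Ttr, the carrier transthyretin) stood out in DG saline 4 (2029 CPM), DG METH 3 (6061), CA saline 2 (2199) and SVZ METH 3 (7983), and at most 385 CPM in the 28 others. For the 6 genes, results that rest on the first 6 libraries are given with and without them. There DG METH 3, CA saline 2 and SVZ METH 3 are kept, and the 4 libraries with choroid plexus markers were left out separately.

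The sequences upstream of 4 of the genes are shown because they show letters that these genes share in pairs: Th and Slc18a2 hold a cAMP response element, and Maoa and Maob hold GC boxes. They are the 250 bases before the annotated start in RefSeq on the GRCr8 build, 5′ to 3′ on the strand of the gene. All 6 genes matched a RefSeq entry (Ddc matched 3). The cAMP response element (TGACGTCA, which reads the same on both strands) is in capitals for Th (chr1:207508219-207508468, minus strand) and Slc18a2 (chr1:268399771-268400020, plus strand), 69 and 52 bases before the start. For Maoa (chrX:8681373-8681622, minus strand) and Maob (chrX:8490155-8490404, plus strand), the capitals mark the GC box on either strand (GGGCGG or CCGCCC), which occurs 4 times for Maoa and 2 times for Maob.

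Th: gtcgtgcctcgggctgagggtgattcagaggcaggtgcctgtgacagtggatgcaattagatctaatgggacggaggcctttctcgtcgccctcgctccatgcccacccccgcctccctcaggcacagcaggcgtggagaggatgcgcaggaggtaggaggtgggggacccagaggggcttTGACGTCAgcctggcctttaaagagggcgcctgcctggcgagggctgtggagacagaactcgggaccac

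Slc18a2: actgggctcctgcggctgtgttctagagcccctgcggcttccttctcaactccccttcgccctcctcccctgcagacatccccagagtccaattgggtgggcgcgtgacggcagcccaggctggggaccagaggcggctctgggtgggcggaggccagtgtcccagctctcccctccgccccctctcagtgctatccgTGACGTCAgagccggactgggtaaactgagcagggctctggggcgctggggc

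Maoa: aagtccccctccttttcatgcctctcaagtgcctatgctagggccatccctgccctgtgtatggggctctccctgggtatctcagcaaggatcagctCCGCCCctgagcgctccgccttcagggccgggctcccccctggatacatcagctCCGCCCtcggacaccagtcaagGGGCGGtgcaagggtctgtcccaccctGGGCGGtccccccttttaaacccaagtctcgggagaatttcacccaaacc

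Maob: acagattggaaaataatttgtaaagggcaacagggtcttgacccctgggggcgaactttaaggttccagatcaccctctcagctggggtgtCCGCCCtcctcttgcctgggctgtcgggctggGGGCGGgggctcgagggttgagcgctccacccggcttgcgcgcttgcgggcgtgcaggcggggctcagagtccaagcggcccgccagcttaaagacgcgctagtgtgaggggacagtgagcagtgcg

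Of 33469 rat promoters of this length, 1.59% held the cAMP response element and 30.5% a GC box, and 7.41% held at least 3 GC boxes. Slc18a2 also held 2 GC boxes, Slc6a3 held 3, and Th held none. None of the 3 Ddc entries held either motif, and the letters TATAAA or TATATA, searched on both strands and present in 16.1% of all promoters, occurred in 1 of the Ddc entries and in no entry of the other 5 genes. A match of letters is a description and says nothing of whether a factor binds there. The Pearson r of log2(CPM + 0.5) over the 32 samples, which share regions, was -0.10 for Th and Slc18a2 and 0.31 for Maoa and Maob, and 0.15 for both pairs in the 26 samples without the libraries that stood apart.

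On the rn6 build of the count tables, Th lies at chr1:216073031-216080287 (minus strand), Ddc at chr14:91905919-91996774 (minus strand), Slc6a3 at chr1:32321580-32363983 (minus strand) and Slc18a2 at chr1:280423079-280457148 (plus strand). Maoa (chrX:6554698-6620722, minus strand) and Maob (chrX:6430594-6533534, plus strand) are neighbours, with 21163 bases between their 3′ ends. Counts are over exons, and the exons of none of the 6 genes overlap another gene's exons.

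In the count tables of the single samples, the 6 genes fell into 4 ranges of expression. On the scale of CPM per kb of exon, which allows genes to be compared, Maoa and Maob had medians of 22.2 and 21.3 over the 32 samples, at the percentiles 78.3 and 77.4 of the genes tested. Slc18a2 followed with 4.08 CPM per kb. The count matrix of the series held only 23.1% of its reads, with a median of 12 reads per sample and under 10 in 15 samples. The place of Slc18a2 in this order is thus uncertain. Ddc and Th had medians of 0.668 and 0.512 CPM per kb, and Slc6a3 had 0.0255. In reads, Maoa ranged from 400 to 1047 and Maob from 398 to 1620 per sample, Slc18a2 from 110 to 648, Ddc from 25 to 1842, Th from 4 to 137 and Slc6a3 from 0 to 8. Th stayed under 10 reads in 10 of the 32 samples, so 1 read more or less moves its level visibly.

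**Figure D1:**
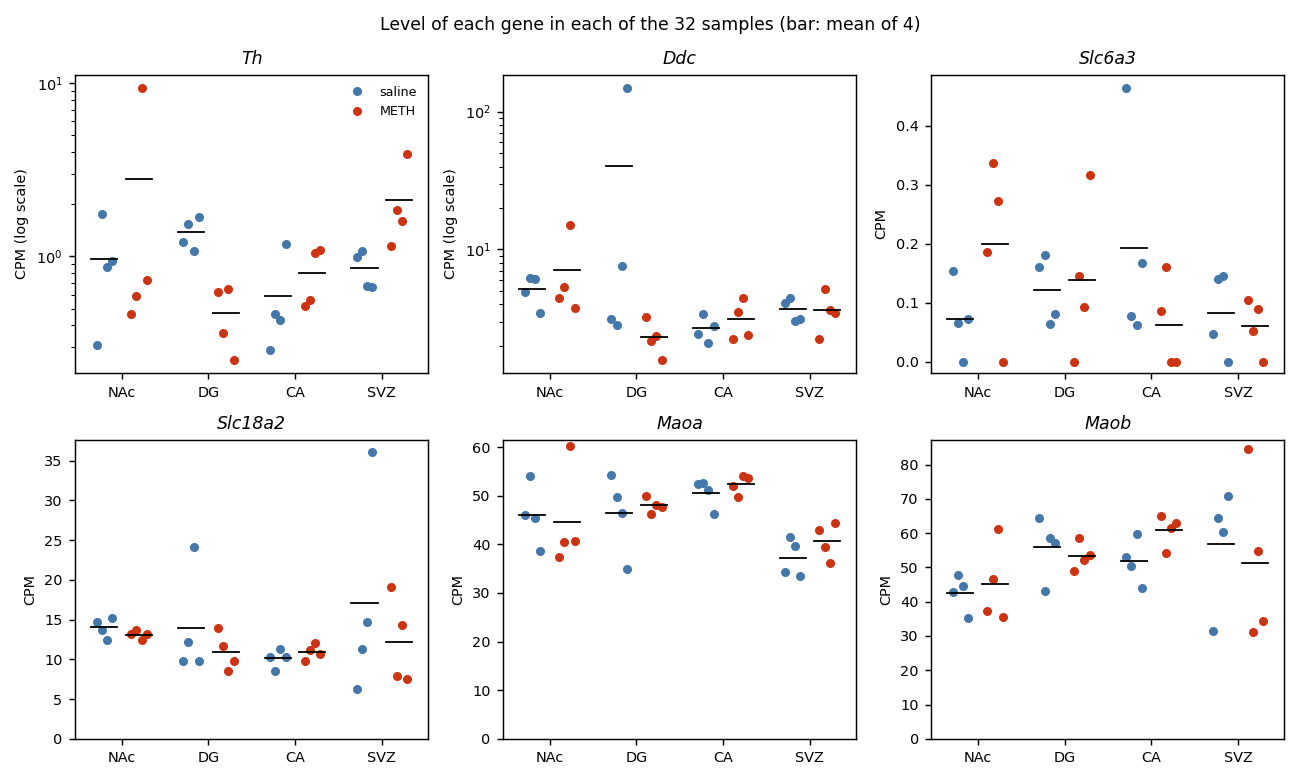
Level of each of the 6 genes in CPM (y axis, log scale for Th and Ddc) in the 32 samples, by region (x axis) and treatment (blue, saline; red, METH), with a bar at the mean of 4. DG saline 4 stands alone for Ddc at 148 CPM, NAc METH 3 for Th at 9.32 CPM, and Slc6a3 does not exceed 0.464 CPM in any sample.

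METH was compared with saline in each region with edgeR's quasi-likelihood test over all genes, with an adjusted p (FDR, after Benjamini and Hochberg over every gene in the fit) under 0.01 and a fold change above 1.5 as the threshold. Slc6a3 did not pass the filter on low counts in any region and Th did not pass it in the CA, which left 19 tests of single genes. With DESeq2 none of the 6 genes passed the threshold in any region, but it gave no p for Ddc in the DG or Th in the NAc. An edgeR alternative with 2 added factors, given below, had Ddc in the DG past it. In the main edgeR fits none of the 6 genes passed in any region, and the lowest FDR was 0.185 (Th in the DG). The background was the same: 0% of the genes tested passed in each of the NAc, DG, CA and SVZ. At an unadjusted p under 0.05 there were 0 of 5 genes in the NAc (background 3.39% of all genes tested), 2 of 5 in the DG (Th and Ddc, both lower; background 12.8%), 1 of 4 in the CA (Maob, higher; background 7.16%) and 1 of 5 in the SVZ (Th, higher; background 2.58%). The median log2 fold change of the genes tested was 0.11 in the NAc, -0.35 in the DG, 0.18 in the CA and 0.00 in the SVZ, beside 0.03, -0.01, 0.01 and 0.02 over all genes.

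**Figure D2:**
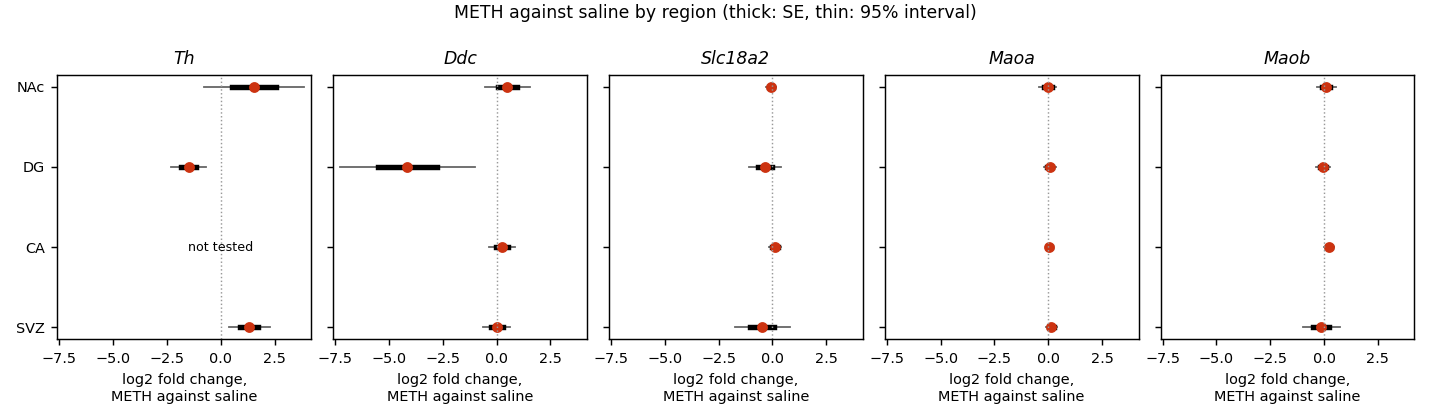
Log2 fold change of METH against saline (x axis) for 5 genes in each region (y axis), with the standard error (thick) and the approximate 95% interval (thin) of the edgeR fit of 4 against 4 samples. The interval of Th lies below 0 in the DG (-1.50) and above 0 in the SVZ (1.32), while those of Slc18a2 and Maoa include 0 in all 4 regions.

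Th, the first enzyme of the pathway, was lower with METH in the DG and higher in the SVZ. In the DG it held 1.21, 1.54, 1.07 and 1.69 CPM in the saline samples (15, 17, 17 and 21 reads) and 0.620, 0.361, 0.644 and 0.253 CPM in the METH samples (10, 5, 14 and 4 reads). The groups did not overlap, which was the case for 6.55% of 16122 genes in the DG, 2.42% in the NAc and 4.31% in the CA. The log2 fold change was -1.50 ± 0.36 (SE, edgeR quasi-likelihood test, FDR = 0.185), and an exact two-sided permutation test of the 4 against 4 levels gave p = 0.0286, the smallest that 70 splits allow. Without DG saline 3 and 4, the log2 fold change was -1.45 (edgeR, FDR = 0.255), and without the DG libraries with choroid plexus markers it was -1.57 (edgeR, FDR = 0.272). With a name in the file headers, taken as the sequencing run, as a covariate it was -1.13 (edgeR, FDR = 0.608). Some of these names held only 1 treatment in the DG. In the file headers, the library numbers of DG saline 1 and 2 and DG METH 1 and 2 stand under the other treatment in the NAc and CA, so the treatment of these 4 DG samples rests on the labels alone. With the treatments of these 4 exchanged, the Th levels of the groups would overlap, and with the 4 left out the log2 fold change was -1.58 (edgeR, FDR = 0.733). The hypothalamic genes were at 2.27 to 13.6 CPM in the DG saline and 1.08 to 6.44 CPM in the DG METH samples, and their part in this difference was not tested.

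In the SVZ, Th held 0.989, 1.08, 0.678 and 0.669 CPM in the saline samples (21, 23, 14 and 12 reads) and 1.15, 1.86, 1.59 and 3.90 CPM in the METH samples (22, 36, 36 and 84 reads). Every METH sample was above every saline sample, and SVZ METH 4 was far above the rest. Groups without overlap made up 1.68% of the genes in the SVZ. METH was above saline by 1.32 ± 0.41 on the log2 scale (SE, edgeR quasi-likelihood test, FDR = 0.979), with an exact permutation p = 0.0286. The hypothalamic genes were at 2.20 to 7.70 CPM in SVZ saline and at 4.18, 21.5, 95.04 and 3.02 CPM in the SVZ METH samples, and their part was not tested. The log2 fold change of Th was 0.86 without SVZ METH 4 and 1.42 (edgeR, FDR = 0.877) without SVZ METH 3. It was 0.78 (edgeR, FDR = 0.824) without the 3 SVZ libraries with thalamic markers, of which 2 are METH and 1 is saline. The headers give the 4 SVZ METH libraries only 2 library numbers, and with libraries of the same number summed the log2 fold change was 1.30 (edgeR, FDR = 1.00).

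In the NAc, Th held 0.308, 1.76, 0.870 and 0.940 CPM in saline and 0.467, 0.590, 9.32 and 0.734 CPM in METH samples. The value of 9.32 CPM (137 reads) belonged to NAc METH 3, the library with the hypothalamic genes, and was 15.6-fold above the mean of the other 3 METH samples, which lay within the range of the saline samples. The log2 fold change of 1.54 ± 1.02 (SE, edgeR, FDR = 0.999) turned to -0.68 without NAc METH 3 and to -0.75 with the name in the file headers as a covariate. In the CA, Th held 0.290, 0.468, 0.432 and 1.18 CPM in saline and 0.515, 0.560, 1.04 and 1.08 CPM in METH samples, with 5 to 16 reads. These groups overlapped (exact permutation p = 0.429).

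The METH effect on Th was compared between the regions in 1 model of the 32 samples, in which the interaction of region and treatment gave FDR = 0.550 (edgeR, unadjusted p under 0.05, as for 7.74% of the genes tested). Without the 6 libraries that stood apart the FDR was 0.368, and without the 4 libraries with choroid plexus markers it was 0.608. Averaged over the 4 regions, the log2 fold change of Th was 0.46 ± 0.35 (SE, edgeR, FDR = 0.760), and -0.22 without the 6 libraries.

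In saline samples alone, Th had the order DG (1.38 ± 0.286 CPM, SD, n = 4), NAc (0.969 ± 0.598), SVZ (0.853 ± 0.210) and CA (0.592 ± 0.398). No pair of neighbours in this order differed beyond its spread. The DG was above the CA by 1.26 ± 0.48 on the log2 scale (SE, edgeR, FDR = 0.507), and by 1.22 without the saline libraries that stood apart. Neither passed the threshold for regions (FDR under 0.01 and a fold change above 2), which 0% of all genes passed between the DG and CA.

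Ddc, the decarboxylase, had the widest range of the 6 genes, and 1 library made most of it. In the DG, the saline samples held 3.14, 2.81, 7.64 and 148 CPM (39, 31, 121 and 1842 reads) and the METH samples 3.22, 2.17, 2.35 and 1.58 CPM. DG saline 4 was 32.7-fold above the mean of the other 3 saline samples, while DG saline 1 and 2 lay within the range of the METH samples. In DG saline 4, Tph1 (the tryptophan hydroxylase of the pineal gland) reached 39072 reads against 0 to 80 in the 31 others, Crx (a transcription factor of the retina and pineal gland) 881 reads against 0 or 1, and Gch1 (the first enzyme of the biopterin cofactor that Th and Tph1 need) 141 CPM against at most 1.77. The log2 fold change of Ddc in the DG was -4.15 ± 1.38 (SE, edgeR quasi-likelihood test, FDR = 0.280). It was -0.94 (edgeR, FDR = 0.437) without DG saline 4 and -0.30 (edgeR, FDR = 0.681) without DG saline 3 and 4, where the saline mean was 2.97 ± 0.231 CPM (SD, n = 2) against 2.33 ± 0.679 CPM (SD, n = 4) with METH.

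In the other 3 regions the Ddc levels of saline and METH samples overlapped. The NAc held 4.93, 6.19, 6.09 and 3.47 CPM in saline and 4.48, 5.31, 15.0 and 3.74 CPM in METH samples, where the high value again was NAc METH 3 (3.32-fold above the mean of the other 3). The log2 fold change of 0.50 ± 0.45 (SE, edgeR, FDR = 0.999) turned to -0.18 without that library. The CA held 2.44, 3.43, 2.10 and 2.77 CPM in saline and 2.23, 3.52, 4.42 and 2.38 CPM in METH samples. The SVZ held 4.10, 4.44, 3.05 and 3.12 CPM in saline and 2.25, 5.21, 3.63 and 3.48 CPM in METH samples. The groups overlapped in both, with log2 fold changes of 0.24 ± 0.27 in the CA and 0.00 ± 0.27 in the SVZ (SE).

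For Ddc the interaction of region and treatment gave FDR = 0.263 (edgeR), and FDR = 0.810 without the 6 libraries that stood apart. The average over regions of -0.85 ± 0.39 (SE, edgeR, FDR = 0.611, background 7.83% of genes) became -0.13 (edgeR, FDR = 0.814). Between regions in saline, Ddc in the DG was above the mean of the other regions by 3.48 on the log2 scale (edgeR, FDR = 0.134, background 6.78% of the genes at p under 0.05), and below it by 0.35 (edgeR, FDR = 0.484) without DG saline 3 and 4 and SVZ saline 1. Without these libraries Ddc was higher in the NAc than in the DG by 0.85 (edgeR, FDR = 0.0958) and than in the CA by 0.98 (edgeR, FDR = 0.0147). Neither passed the threshold for regions. The NAc saline mean was 5.17 ± 1.27 CPM and the CA mean 2.68 ± 0.569 CPM (SD, n = 4). With all saline samples the NAc was also above the CA by 0.98 (edgeR, FDR = 0.574), where 24.1% of all genes had an unadjusted p under 0.05.

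**Figure D3:**
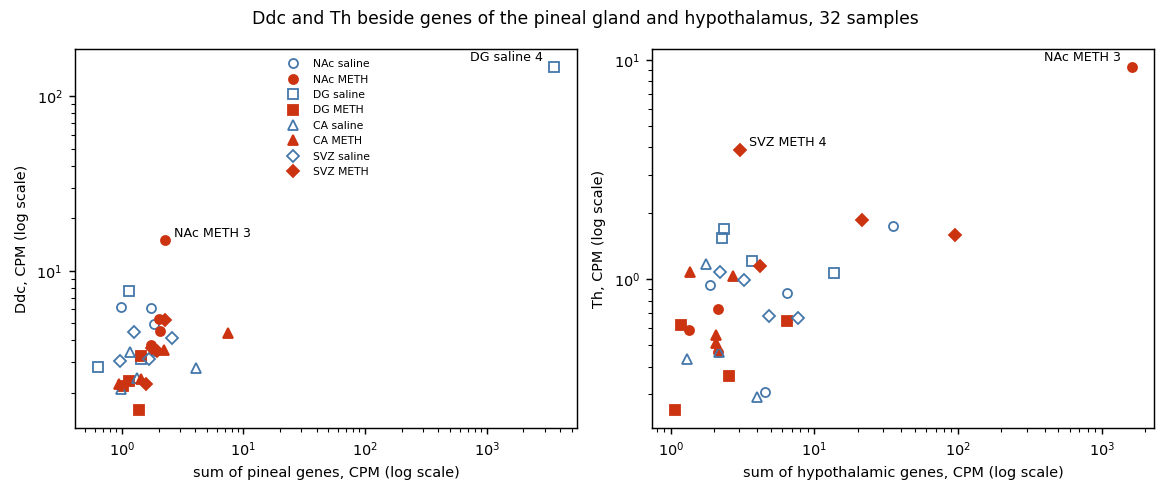
Left, Ddc against the sum of 5 pineal genes, and right, Th against the sum of 6 hypothalamic genes, both in CPM on log axes, for the 32 samples (open blue, saline; filled red, METH; the shape gives the region). DG saline 4 lies alone at the top right of the Ddc panel (148 CPM of Ddc, 3605 CPM of pineal genes) and NAc METH 3 at the top right of the Th panel (9.32 CPM of Th, 1614 CPM of hypothalamic genes).

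Over the 32 samples, which share regions, the Pearson r of log2(CPM + 0.5) was 0.86 for Ddc and the pineal genes, and 0.31 in the 26 samples without the 6 libraries that stood apart. For Th and the hypothalamic genes it was 0.70 in 32 and 0.47 in 26 samples. In the 26 samples Ddc went most with the interneuron and neuroblast markers among the marker lists (r = 0.75, against 0.02 in all 32). These are descriptions of the samples, and the part of these cells in the level of Ddc was not tested.

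Slc6a3, the dopamine transporter, was close to absent from the reads. It had 56 reads over the 32 samples, 0 in 7 samples and at most 8 in 1 sample (CA saline 1, 0.464 CPM). In the NAc, which receives dense dopamine axons, the saline samples had 2, 1, 0 and 1 reads and the METH samples 2, 4, 4 and 0 reads. The means of the 8 groups lay between 0.0611 and 0.199 CPM and rest on such single reads, so no difference between groups was detectable at this depth. The noradrenaline transporter Slc6a2, with at most 4 reads in a sample, and the serotonin transporter Slc6a4, with at most 9, were as low. Not all monoamine transporters were, since Slc29a4 had 92 to 449 reads and Slc22a3 had 1 to 316. Of 8 transcription factors of dopamine neurons, 5 stayed under 10 reads in every sample, among them Pitx3 with at most 7. The other 3 were Nr4a2, which cortical neurons also express, with 49 to 2880 reads, Lmx1a with up to 254 (SVZ METH 3) and En2 with up to 16 (DG METH 3).

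Slc18a2, the vesicular transporter, was above Th and Ddc per kb in 31 of the 32 samples each, but most of its reads rest on how they were assigned. The sample tables, which were counted without regard to strand, give it 6441 reads in all, while the count matrix of the series gives 1486 (23.1%). For the other 4 genes in the matrix (Slc6a3 is not in it), the matrix holds 97.8% to 99.0% of the reads in the sample tables. Per sample, the matrix held from 0% to 68.7% of the Slc18a2 reads (median 6.50%), with fewer than 10 reads in 15 samples and 0 in 2 (NAc METH 2 and DG saline 2).

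The reads that the matrix leaves out were spread evenly, between 98 and 234 per sample (2.39-fold). They came to 4.13% to 9.87% of the reads of Pdzd8, a range that was also 2.39-fold. The Pearson r of these reads and the Pdzd8 reads was 0.47 over the 32 samples, which share regions. On the rn6 build Pdzd8 (chr1:280458041-280515650, minus strand) lies tail to tail with Slc18a2, with 892 bases between their ends. The sources used here do not say how the matrix was counted. Of 913 genes whose exons overlap exons on the other strand, 27.2% had over 5% more reads in the matrix than in the sample tables, against 0.103% of 13656 genes without such overlap. Fewer than 50% of the reads in the matrix were found for 0.947% of the 14569 genes compared. The strand of the Slc18a2 reads was not tested, since neither table keeps it, and its levels from the sample tables are uncertain.

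In the sample tables, Slc18a2 had a narrow range in the NAc, with 14.7, 13.7, 12.4 and 15.3 CPM in saline and 13.2, 13.7, 12.4 and 13.1 CPM in METH samples. The range was also narrow in the CA, with 10.3, 8.58, 11.4 and 10.3 CPM in saline and 9.79, 11.2, 12.1 and 10.7 CPM in METH samples. The DG held 9.81, 12.1, 24.2 and 9.81 CPM in saline and 14.0, 11.6, 8.56 and 9.74 CPM in METH samples, with DG saline 3 above all others. The SVZ held 6.22, 11.3, 14.8 and 36.1 CPM in saline and 19.2, 7.94, 14.3 and 7.51 CPM in METH samples, the widest spread of the 4 regions. Groups overlapped in every region. The log2 fold changes were -0.07 ± 0.10 in the NAc, -0.35 ± 0.32 in the DG, 0.12 ± 0.12 in the CA and -0.48 ± 0.56 in the SVZ (SE, edgeR, FDR of 0.731 to 0.999), and the DG value was 0.050 without DG saline 3 and 4. In saline the order was SVZ (17.1 ± 13.2 CPM, SD, n = 4), NAc (14.0 ± 1.24), DG (14.0 ± 6.88) and CA (10.1 ± 1.15), with no difference between neighbours beyond their spread. The SVZ was above the mean of the other regions by 0.48 on the log2 scale (edgeR, FDR = 0.397). In that comparison 25.4% of all genes had an unadjusted p under 0.05. Without the saline libraries that stood apart, a choice made after seeing the data, it was 0.89 (edgeR, FDR = 0.0356). That choice takes out the lowest SVZ level (SVZ saline 1) and the highest DG level (DG saline 3). Neither fit passed the threshold for regions.

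In the matrix the picture of Slc18a2 between samples was another. The 8 SVZ samples held 0.240, 1.55, 6.43 and 26.3 CPM in saline and 7.28, 0.419, 9.81 and 0.190 CPM in METH, and the 3 lowest were SVZ saline 1, METH 2 and METH 4, the libraries with thalamic markers. Outside the SVZ, DG saline 3 (13.5 CPM), NAc saline 2 (4.79 CPM) and NAc METH 3 (3.75 CPM) were highest. The SVZ fold change was -0.96 on the log2 scale (edgeR, FDR = 0.969) in the matrix, where Slc18a2 did not pass the filter in the NAc or DG. The matrix level of Slc18a2 went with the 4 ependymal markers that the tables hold of a list of 5 over the 32 samples (r = 0.76, and 0.79 in the 26 samples without the 6 libraries), while the level in the sample tables did so less (r = 0.43). The ependymal markers ranged from 9.42 to 84.5 CPM in SVZ saline and from 2.13 to 51.9 CPM in SVZ METH samples. Whether ependymal cells carry the Slc18a2 reads was not tested.

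**Figure D4:**
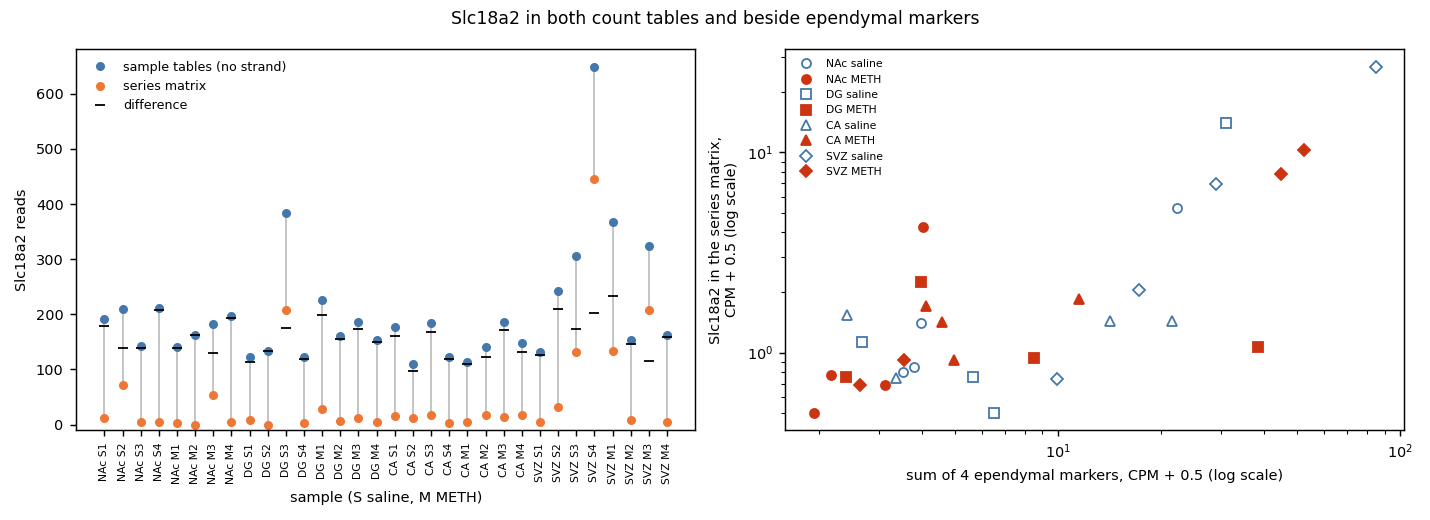
Left, Slc18a2 reads per sample in the sample tables (blue), in the series matrix (orange) and their difference (black), and right, Slc18a2 in the matrix against the sum of 4 ependymal markers (CPM + 0.5, log axes; open blue, saline; filled red, METH). The difference stays between 98 and 234 reads while the matrix ranges from 0 to 445 reads, and the samples highest in Slc18a2 on the right are from the SVZ and DG.

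Maoa, the oxidase that prefers serotonin and noradrenaline, ranged from 33.4 to 60.2 CPM over the 32 samples, the smallest ratio of highest to lowest level among the 6 genes. In the NAc it held 46.1, 54.1, 45.5 and 38.7 CPM in saline and 37.4, 40.6, 60.2 and 40.6 CPM in METH samples. The highest value of all 32, 60.2 CPM, again belonged to NAc METH 3, and without it the METH mean was 39.5 ± 1.86 CPM (SD, n = 3) against 46.1 ± 6.31 CPM (SD, n = 4) in saline. The DG held 54.2, 49.8, 46.5 and 34.9 CPM in saline and 50.02, 46.3, 48.2 and 47.6 CPM in METH samples, where the lowest value was DG saline 4. The CA held 52.4, 52.6, 51.2 and 46.3 CPM in saline and 52.1, 49.7, 54.0 and 53.7 CPM in METH samples. The SVZ was lower, with 34.3, 41.5, 39.7 and 33.4 CPM in saline and 42.9, 39.4, 36.2 and 44.4 CPM in METH samples. The treatments overlapped in every region. The log2 fold changes lay between -0.02 and 0.14, and the 95% intervals reached from -0.41 (NAc) to 0.39 (SVZ).

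Between regions, Maoa had the lowest FDR of the 6 genes with edgeR on all saline samples. The order in saline was CA (50.6 ± 2.93 CPM, SD, n = 4), DG (46.4 ± 8.26), NAc (46.1 ± 6.31) and SVZ (37.2 ± 3.99), in which CA and DG, and DG and NAc, did not differ beyond their spread. The NAc was above the SVZ by 0.30 on the log2 scale (edgeR, FDR = 0.350), which did not pass the threshold. In that comparison 12.6% of all genes had an unadjusted p under 0.05. The CA was above the SVZ by 0.40 ± 0.13 on the log2 scale (SE, edgeR quasi-likelihood test, FDR = 0.0496), a fold change of 1.32, below the 2-fold threshold that 0.812% of all genes passed in this comparison. DESeq2 gave 0.46 (FDR = 0.00876) and the fit without the saline libraries that stood apart 0.36 (edgeR, FDR = 0.0392). The SVZ was below the mean of the other regions by 0.33 ± 0.11 (SE, edgeR, FDR = 0.0783), in a comparison where 25.4% of all genes had an unadjusted p under 0.05. The striatal markers went against Maoa over the samples, which share regions (r = -0.51 in 32 and -0.72 in 26 samples). So did the interneuron and neuroblast markers (-0.41 and -0.66). The astrocyte markers (0.56 and 0.37) and the cortical glutamatergic neuron markers (0.40 and 0.62) went with it. The part of these cells in the level of Maoa was not tested.

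Maob, the oxidase of astrocytes and serotonin neurons, reached CPM values like those of Maoa but varied more. In the CA it held 53.1, 50.5, 59.7 and 44.1 CPM in saline and 65.0, 54.3, 61.6 and 63.0 CPM in METH samples. All but CA METH 2 were above all saline samples. The difference was 0.23 ± 0.10 on the log2 scale (SE, edgeR quasi-likelihood test, FDR = 0.694), with an exact permutation p = 0.0571. The sum of 7 astrocyte markers moved the same way, from 2833 to 3829 CPM in saline and from 3398 to 4087 CPM in METH samples of the CA, and its part in the Maob level was not tested. The same sum did not overlap between saline and METH in the DG (2456 to 3177 against 3471 to 3761 CPM) or the NAc (2575 to 2772 against 2942 to 4208 CPM), where the log2 fold changes of Maob were -0.06 and 0.11.

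In the SVZ Maob fell into 2 separate levels that crossed the treatments. The saline samples held 31.5, 64.5, 60.4 and 70.8 CPM and the METH samples 84.6, 31.1, 54.9 and 34.3 CPM. The 3 low values belonged to SVZ saline 1, METH 2 and METH 4, the libraries with thalamic markers, which also held 17798 to 26082 CPM of 5 oligodendrocyte markers against 3583 to 8751 CPM in the other 5. The log2 fold change was -0.13 ± 0.38 (SE, edgeR, FDR = 0.980), and 0.12 (edgeR, FDR = 0.987) without these 3 libraries. In the saline samples, the SVZ was above the mean of the other regions by 0.22 (edgeR, FDR = 0.451). Without the saline libraries that stood apart, a choice made after seeing the data that takes out the low SVZ saline 1, it was 0.45 (edgeR, FDR = 0.0320). Neither fit passed the threshold for regions, in a comparison where 25.4% of all genes had an unadjusted p under 0.05 with all saline samples.

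In the NAc Maob held 42.8, 47.8, 44.5 and 35.3 CPM in saline and 37.2, 46.7, 61.1 and 35.6 CPM in METH samples, with NAc METH 3 highest. In the DG it held 64.4, 43.2, 58.7 and 57.2 CPM in saline and 48.9, 58.5, 52.1 and 53.5 CPM in METH samples. The groups overlapped in both regions, with log2 fold changes of 0.11 ± 0.19 in the NAc and -0.06 ± 0.14 in the DG (SE). The order of Maob in saline was SVZ (56.8 ± 17.4 CPM, SD, n = 4), DG (55.8 ± 9.01), CA (51.8 ± 6.46) and NAc (42.6 ± 5.30), and no neighbours differed beyond their spread.

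The balance of the oxidases varied between samples. Per kb, Maob came to 0.643 to 1.76 of Maoa (median 0.905), and it exceeded Maoa in 9 of the 32 samples. All 8 NAc samples lay below 1, from 0.730 to 0.959. The CA was similar, from 0.791 to 0.970 in saline and from 0.910 to 1.04 with METH. The DG ranged from 0.722 to 1.36 in saline and from 0.814 to 1.05 with METH. In the SVZ, the 5 samples without high thalamic markers lay between 1.26 and 1.76, and the 3 samples with them between 0.643 and 0.765.

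**Figure D5:**
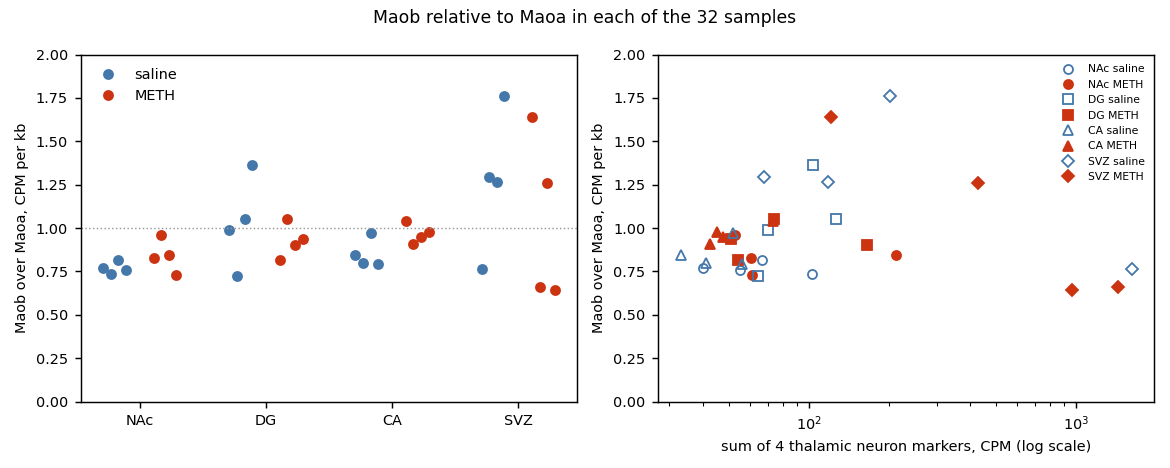
Ratio of Maob to Maoa in CPM per kb (y axis), by region and treatment on the left (blue, saline; red, METH) and against the sum of 4 thalamic neuron markers (CPM, log axis) on the right. The SVZ samples split into 5 above 1 and 3 below 1, and the 3 hold 962 to 1614 CPM of thalamic markers.

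In the 4 comparisons of each region with the other regions in saline, none of the 6 genes passed the threshold in 20 tests, where the background was 0% in the NAc, 0% in the DG, 0.264% in the CA and 0.0645% in the SVZ. At an unadjusted p under 0.05 there were 0 genes in the NAc (background 15%), Ddc and Th in the DG (6.78%), Th in the CA (25.7%) and Maoa in the SVZ (25.4%). In the CA Th was below the mean of the other regions by 0.88 on the log2 scale (edgeR, FDR = 0.193). In 30 tests over the 6 pairs of regions none passed the threshold. Between the NAc and DG 1 of 5 had a p under 0.05 (Ddc; background 11.5%), between the NAc and CA 0 (24.1%), between the NAc and SVZ 1 (Maoa; 12.6%), between the DG and CA 2 (Ddc and Th; 8.93%), between the DG and SVZ 2 (Ddc and Maoa; 17.6%, with 0.0193% past the threshold) and between the CA and SVZ 1 (Maoa; 31.6%).

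A further 37 genes of the pathway, in 6 lists, were tested with the same fits, and none passed the threshold of any METH comparison or any comparison of regions in saline. With METH at an unadjusted p under 0.05 there were 1 of 19 genes tested in the NAc (3.39% of all genes), 3 of 18 in the DG (12.8%), 1 of 16 in the CA (7.16%) and 1 of 21 in the SVZ (2.58%). In the NAc it was Nr4a2 (log2 fold change -1.63; edgeR, FDR = 0.999). In the DG they included the aldehyde dehydrogenase Aldh1a1 (1.30) and the organic cation transporter Slc22a3 (-2.05). In the CA it was the sulfotransferase Sult1a1 (0.47), and in the SVZ the plasma membrane monoamine transporter Slc29a4 (0.73, edgeR, FDR = 0.979). These values are from all samples, and the part of the libraries that stood apart in them was not tested.

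By list, the biopterin cofactor genes had no gene at p under 0.05 with METH in any region, of 4 or 5 tested out of 6. The genes of other monoamine synthesis had none of 0 to 2 tested out of 5, and the dopamine receptors none of 3 or 4 tested out of 5. The other transporters had Slc22a3 lower in the DG and Slc29a4 higher in the SVZ, of 2 or 3 tested out of 7. The other breakdown enzymes, all 6 of them tested in every region, included Aldh1a1, which was higher in the DG, and Sult1a1, which was higher in the CA. The dopamine neuron factors had Nr4a2 lower in the NAc, which was the 1 gene tested out of 8. Averaged over regions, 4 of 25 genes tested had a p under 0.05 (7.83% of all genes). They were Slc29a4 (0.32), Hnmt (-0.26), Slc22a3 (-1.09) and Drd3 (-1.42), with FDR of 0.555 to 0.593 (edgeR). In saline, Drd3 and Slc22a3 were higher in the NAc than in the CA, by 4.63 and 3.75 on the log2 scale. The averages are from all samples, and the part in them of the libraries that stood apart was not tested.

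The genes whose log2(CPM + 0.5) was most like that of each gene over the 32 samples are given by Pearson r as a description. For Th they were Podxl2 (0.78), Nectin2 (0.77) and Ldhd (0.77), and Podxl2 was still among the 3 closest (0.75) in the 26 samples without the 6 libraries. For Ddc they were Neurod4 (0.90), Impg2 (0.90) and Ubap1l (0.90), of which Neurod4 fell to 0.42 in the 26 samples, where Rnd2 (0.86) was the closest. For Slc18a2 in the sample tables they were AABR07049790.1 (0.85), Myo10 (0.85) and Slc2a10 (0.81), and in the matrix Lbhd2 (0.88), Dnaaf4 (0.86) and Slc27a3 (0.86), of which Dnaaf4 is a factor for the assembly of motile cilia.

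Necap1 (0.80) and Fam20b (0.80) were among the 3 genes most like Maoa. Maob was most like Slc43a3 (0.81), Nckap5 (0.79) and Celsr1 (0.77), and in the 26 samples Crb1 (0.87) was the closest. In the 26 samples Sec24c (0.87) was the closest to Maoa. No gene of the pathway was among the 3 closest of any of them, and the genes closest to Maoa and Maob did not overlap.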

How the data were processed

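Reads of 32 samples (4 per region and treatment, grouped by the labels) were made into the deposited counts per gene by the authors with cutadapt 2.7, STAR 2.5.2b and featureCounts (1.6.3 per the file headers, without strand, rn6, Ensembl release 95). The deposited series matrix of counts served as an alternative, and how it was counted is not given in the sources used here. Counts were fitted with edgeR 4.0.16 (quasi-likelihood test, upper quartile scaling, filterByExpr; R 4.3.3) for METH against saline in each region, over all regions with the interaction, and between regions in saline. The 6 genes and all lists were chosen with earlier results of these data known. The 6 genes are always named. The other pathway genes are named at p under 0.05 in a METH comparison (at most 6 per comparison) or where they bear on 1 of the 6, and the 3 genes most alike by r. Alternatives were DESeq2 1.42.0, other scalings, filters, covariates, RUVr, the replicate block and each sample left out. Leaving out the 6 libraries, the 4 with choroid plexus markers or the 4 DG samples with crossed library numbers, the matrix, the run covariate and summed libraries were chosen after seeing the data. SEs come from the fold change and F statistic, with approximate intervals. The fits were tested on simulated data with known changes. Of genes changed 2-fold, 37.5% passed the threshold in the NAc, 4.17% in the DG, 54% in the CA and 0% in the SVZ. Of genes changed 4-fold, 91.8%, 66%, 92% and 64% passed. A gene that did not pass is thus not shown to be unchanged. Exact permutation tests used scipy 1.17.1. Names in the file headers were taken as sequencing runs, and the labels do not give runs. Whether these names match the 2 sequencing batches that the paper reports was not tested. For CA saline 1 and 2 the name was merged. Within the NAc and within the DG, some names held only saline and others only METH samples, so treatment is partly confounded with them. All SVZ samples share 1 name. Some genes that these rules would name are not reported here.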

Additional observations from a re-analysis of the deposited data

Results flagged for a closer look

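In 5 of 48 sets of 4 samples of 1 gene in 1 group, a sample lay far from the other 3 by Dixon's criterion for the gap over the range, which chance alone gives in about 1 in 20 sets. Of these, 3 belonged to NAc METH 3, where Th stood at 9.32 CPM (next 0.734), Ddc at 15.0 CPM (next 5.31) and Maoa at 60.2 CPM (next 40.6). In DG saline 4 Ddc stood at 148 CPM (next 7.64), and in DG saline 3 Slc18a2 stood at 24.2 CPM (next 12.1). NAc METH 3 was the library with the high hypothalamic genes, DG saline 4 the one with the pineal genes and DG saline 3 the one with striatal markers, and the part of such tissue in these levels was not tested.

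Th differed between regions in the direction of its METH effect, with every METH sample below every saline sample in the DG (log2 fold change -1.50) and above in the SVZ (1.32). The DG direction rests on the labels of DG saline 1 and 2 and DG METH 1 and 2, whose library numbers stand under the other treatment in the NAc and CA, and with these exchanged the DG groups would overlap. The interaction of region and treatment in edgeR gave FDR = 0.550.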

How the results depend on the processing

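The 35 fold changes were recomputed under 831 alternatives, and 36 of these values turned in direction, 23 of them with 1 sample left out. With the libraries that stood apart left out (chosen after seeing the data), the log2 fold change of METH turned to 0.050 for Slc18a2, -0.063 for Maoa and 0.036 for Maob in the DG, to 0.12 for Maob in the SVZ, and to -0.22 for Th and -0.043 for Maoa averaged over regions. Ddc in saline turned to -0.35 for the DG against the other regions, 0.85 for the NAc against the DG and -0.32 for the DG against the SVZ. Without the libraries with choroid plexus markers (also chosen later), Maoa in the DG turned to -0.038 and Ddc in the NAc against the DG to 0.20. In the NAc, Th turned to -0.75 with the name in the file headers as covariate (also chosen later) and Maoa to 0.15 with RNA integrity as covariate. With 1 sample left out in turn, the NAc values ranged from -0.68 to 2.03 for Th, -0.18 to 0.72 for Ddc, -0.20 to 0.077 for Maoa and -0.077 to 0.21 for Maob. The DG values ranged from -0.49 to 0.076 for Slc18a2, -0.026 to 0.14 for Maoa and -0.17 to 0.0029 for Maob. The SVZ values ranged from -0.22 to 0.17 for Ddc, -0.78 to 0.22 for Slc18a2 and -0.49 to 0.045 for Maob. The averages ranged from -0.10 to 0.59 for Th and -0.054 to 0.079 for Maob, and Ddc in the NAc against the DG from -3.38 to 0.20. The cause of these turns was not tested. Of 207 alternatives to the counts of genes past the threshold, 1 differed, with 1 gene (Ddc in the DG, edgeR, FDR = 0.00837) under RUVr with 2 factors, where 165 of 16122 genes passed. The DG change of Ddc rests on DG saline 4, since without that sample the log2 fold change was -0.94.

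Replicate numbers did not pair the samples (r of same-numbered samples -0.76 to 0.39, above 0.1 in 7 of 16 pairs, and 3 of 16 closest to their own number). With the replicate block, the DG values were -1.51 for Th and -1.89 for Ddc, and 0 of the 6 genes passed the threshold. DESeq2 gave no p for Ddc in the DG or Th in the NAc. Depth limits Slc6a3 and Th most, with 0 to 8 and 4 to 137 reads per sample.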
